A study of Homo sapiens with 6 samples.

Results

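Chromatin accessibility was examined at 10 genes that encode B-cell surface markers and Fc receptor-like proteins: MS4A1, CD37, PTPRC, FCER2, CR2, FCRL1, FCRL2, FCRL3, FCRL5 and FCRLA. They were 10 of 19821 annotated protein-coding genes. Peaks that overlapped a gene body or the 10 kb on either side of it were taken, and overlapping or adjoining peaks of the 6 libraries were merged into regions. This gave 31 regions of 56447 in the genome, all on hg19 (GRCh37). All libraries came from GM12878, a lymphoblastoid line made by immortalising human B cells with Epstein-Barr virus, fixed with formaldehyde, with no antibody used. ATAC-seq inserts sequencing adapters into open chromatin with the Tn5 transposase, so that reads pile up at accessible sites. The libraries compared 3 ways of reversing the crosslinks before PCR, with 2 replicates each: a buffer with SDS followed by DNA purification (SDS), a buffer without SDS with purification (SDS-free purified), and the SDS-free buffer added straight to the PCR without purification (SDS-free unpurified), which is the bulk form of the Pi-ATAC workflow. The labels name the buffer of every library and the missing purification of the last pair. The purification of the other libraries was taken from the study's methods. For the unpurified workflow those methods also describe a changed lysis detergent, an EDTA quench and a spin after which the supernatant was discarded. These steps are not described for the SDS libraries. Comparisons with the unpurified libraries are therefore not of buffer and purification alone. The labels do not say whether replicates came from separate cultures, and all 6 are 1 cell line, so the spread between them may be technical.

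CD20, the product of MS4A1, is a membrane protein of mature B cells and the target of therapeutic antibodies. CD45, encoded by PTPRC, is a tyrosine phosphatase on all nucleated blood cells that sets the threshold of antigen receptor signalling, and CD37 is a tetraspanin, a membrane organiser abundant on B cells. CR2 (CD21) binds complement fragments on antigen, is the entry receptor of Epstein-Barr virus, and interacts with CD23, the low-affinity IgE receptor encoded by FCER2. The FCRL genes lie side by side on chromosome 1 and encode receptors related to the Fc receptors that carry signalling motifs in their tails, whereas FCRLA, in a separate place on the same chromosome, stays inside the cell.

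The lists held 30136 to 38023 peaks a library and 12 to 18 of the 31 regions. The reads at the summit of a peak and the local background were solved from its deposited fold enrichment and p-value. Median summits held 20 to 22 reads, and the lowest background, which scales with depth, was 1.51 to 1.86 reads, so the libraries were of like but modest depth. A region that a library did not call was below the peak threshold there, not shown to be closed. As a check of the cell type, 7 of 8 B cell marker genes had a promoter region in at least 1 library, but only EBF1 and MS4A1 had one in all 6, and PAX5 and CD79B had one in 1 library each. Of other lineages, 1 of 10 T cell markers (CD8A, in all 6), 0 of 4 NK cell markers, 1 of 6 myeloid markers (CD14, in 4) and 0 of 4 erythroid markers had a promoter region.

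Few of the regions were called throughout. Of the 31, 7 (22.6%) were called in all 6 libraries, against 35.5% of all regions, and 12 (38.7%) in 1 library only, against 27.4%. The rest were called in 2 (3 regions), 3 (2 regions) or 4 (7 regions) libraries. By position, 9 lay at a promoter of 1 of the 10 genes, within 1 kb of the start of a protein-coding transcript, 3 at the promoter of another gene, and 19 were distal. Of the 9 promoter regions 3 were called in all 6, against 64.2% of all promoter regions, and of the 19 distal regions 4 were, against 27.0% of all regions outside promoters. No test was made of these shares, since the genes were chosen with results known.

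**Figure D1:**
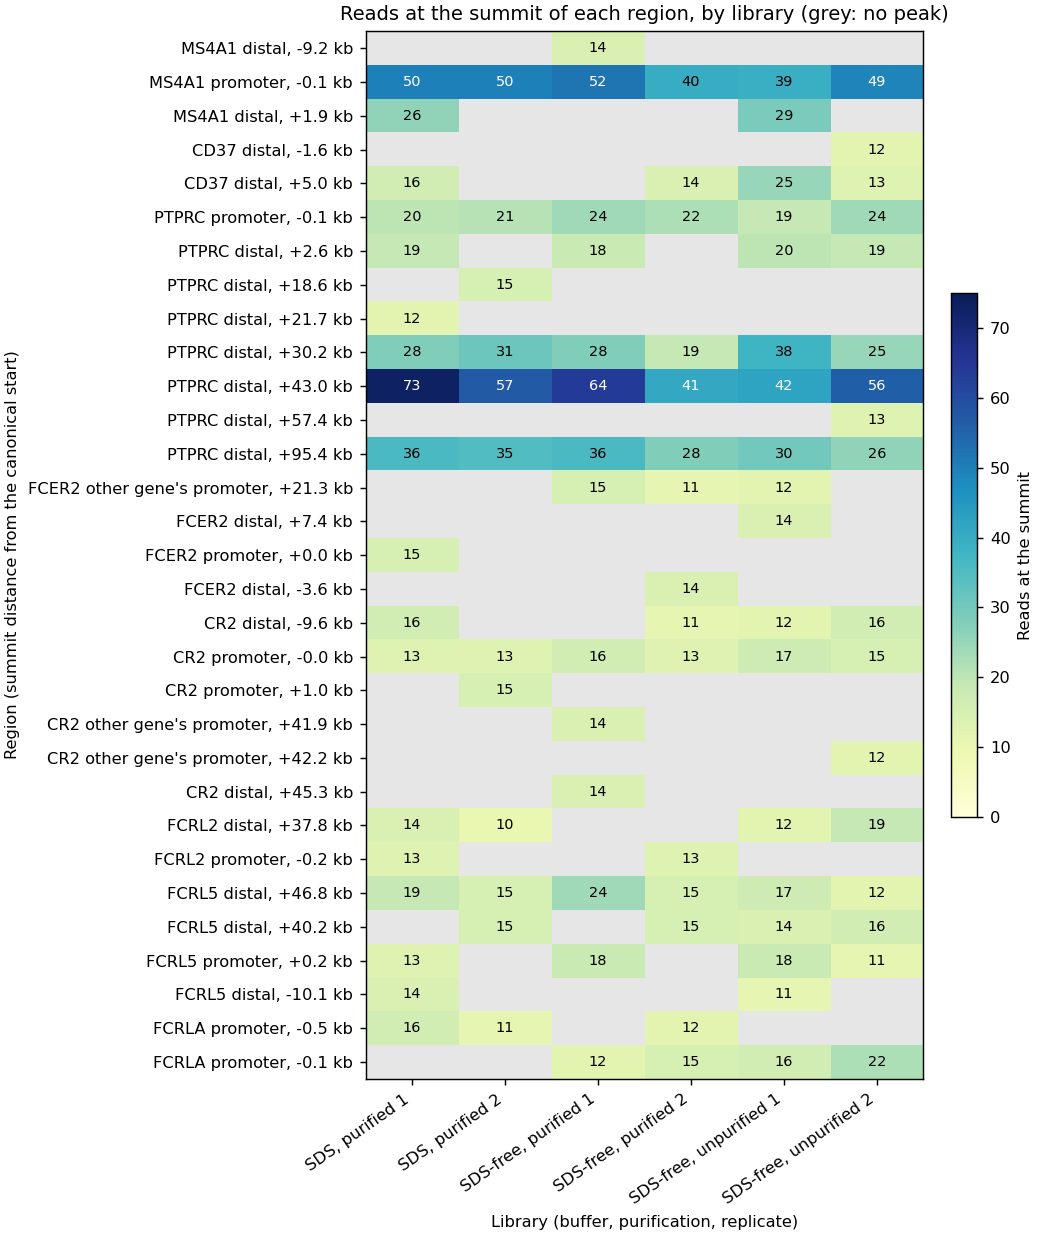
Reads at the summit of each of the 31 regions (rows, with the distance of the strongest summit from the canonical start in kb) in each of the 6 libraries (columns); darker cells and the printed numbers are reads, and grey marks a library without a peak. The MS4A1 promoter and a PTPRC intron region 43.0 kb from the start stand out, with 39 to 52 and 41 to 73 reads.

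The number of regions differed widely between the genes. PTPRC had 8, CR2 had 6, FCER2 and FCRL5 had 4 each, MS4A1 had 3, and CD37, FCRL2 and FCRLA had 2 each, while FCRL1 and FCRL3 had none. Genes without any region in such a window made up 21.0% of all protein-coding genes. The density was 0 regions per 100 kb at FCRL1 and FCRL3 and 3.89 to 12.0 in the 8 genes with a region. The median over all protein-coding genes was 2.84, and it includes genes without a region. It is therefore not a like comparison for the 8 genes alone. A promoter region called in all 6 libraries was found at MS4A1, PTPRC and CR2, which is 3 of 10 genes against 45.5% of all protein-coding genes. The promoters of FCRL5 and FCRLA were called in at most 4 libraries in 1 region, that of FCRL2 in 2 and that of FCER2 in 1, and CD37, FCRL1 and FCRL3 had no promoter region.

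**Figure D2:**
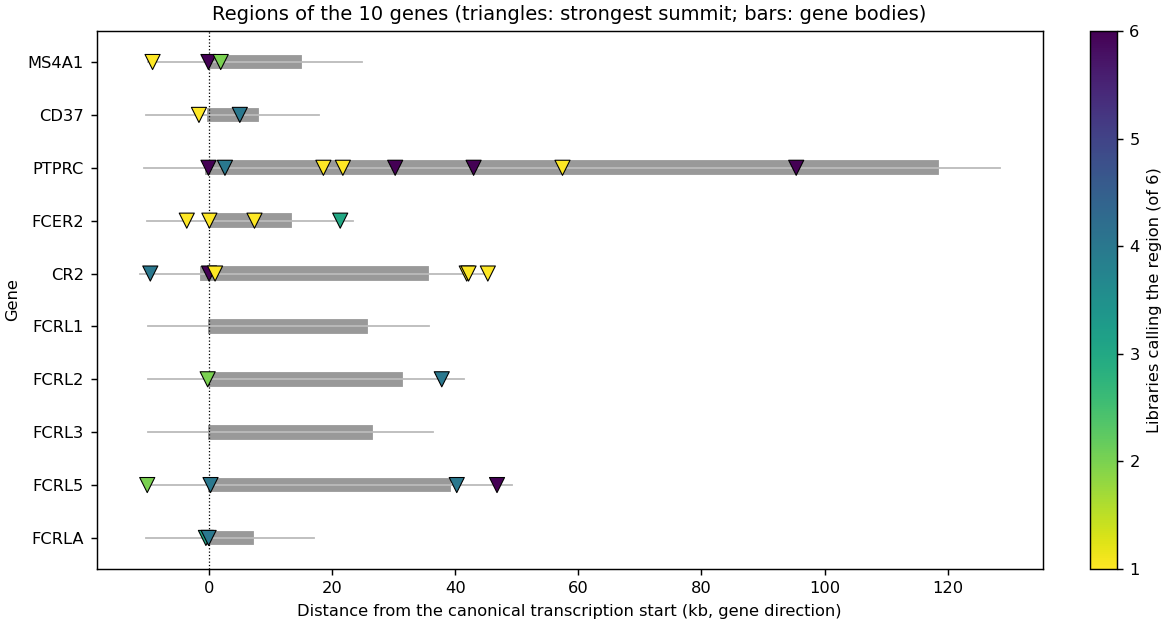
Position of the regions along the 10 genes, in kb from the canonical transcription start in the direction of transcription; grey bars are gene bodies, thin lines the 10 kb flanks, and the colour of a triangle gives the number of libraries (1 to 6) that called the region. PTPRC held 4 regions called in all 6 libraries, and FCRL1 and FCRL3 held no region.

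MS4A1 had the strongest promoter of the 10 genes. The summits of its promoter region fell 170 to 97 bp upstream of the canonical start. Values are given here and below in the order SDS replicates 1 and 2, SDS-free purified 1 and 2, SDS-free unpurified 1 and 2. The region had 50, 50, 52, 40, 39 and 49 reads at the summit, a mean of 46.7 ± 5.65 (SD, n = 6). The SDS-free purified values overlapped with those of both other protocols, both SDS values were above both unpurified values, by as little as 1 read, and the lowest values were SDS-free purified replicate 2 and SDS-free unpurified replicate 1. This mean was above that of 71.5% of the 8292 promoter regions called in all 6 libraries. Ranked by −log10 q, where the strongest peak of a library is at 0%, the peak stood at 7.07% to 26.3% of its library's list. MS4A1 also had an intron region at chr11:60225099-60225406, with 26 reads in SDS replicate 1 and 29 in SDS-free unpurified replicate 1 and no peak elsewhere. These counts exceed those of most regions named here, but the local background was also high, at 6.34 and 6.40 reads, and the peaks ranked at 74.7% and 59.8%. The other MS4A1 region was called in 1 library with 14 reads, and its summit lay inside the neighbouring MS4A5. In the MS4A family around it, 2 of 15 genes (MS4A7 and MS4A14) had a promoter region in all 6 libraries, and the other 13 had none in any.

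PTPRC held the region with the most reads at the summit of all 31, and it lay in an intron. At chr1:198650887-198651665, with summits 42931 to 42987 bp downstream of the canonical start, it had 73, 57, 64, 41, 42 and 56 reads, a mean of 55.5 ± 12.4 (SD, n = 6). Its mean was above that of 95.2% of the 11772 regions outside promoters called in all 6 libraries, and its rank was 1.12% to 17.1%. SDS replicate 1 was highest and SDS-free purified replicate 2 lowest. The SDS-free purified values overlapped with those of both other protocols, and both SDS values were above both unpurified values, by as little as 1 read. The PTPRC promoter, at chr1:198607960-198608353, had 20, 21, 24, 22, 19 and 24 reads (mean 21.7 ± 2.07, SD, n = 6). Its mean was above that of only 13.3% of promoter regions, and it ranked at 46.0% to 79.9%. In each of the 6 libraries the intron region had more reads than the promoter.

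These PTPRC sequences are shown side by side because the intron region had more reads at its summit than the promoter. Both are the plus strand of GRCh37. The promoter stretch is chr1:198607969-198608097, without the annotated untranslated bases, and none of the 8 motifs searched matched there. The intron stretch is chr1:198651048-198651248, with the match to ACCACA, the reverse complement of the RUNX motif TGTGGT, in capitals.
PTPRC promoter: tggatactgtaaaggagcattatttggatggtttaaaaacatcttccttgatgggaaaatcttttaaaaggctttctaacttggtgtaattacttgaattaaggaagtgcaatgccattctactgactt
PTPRC intron: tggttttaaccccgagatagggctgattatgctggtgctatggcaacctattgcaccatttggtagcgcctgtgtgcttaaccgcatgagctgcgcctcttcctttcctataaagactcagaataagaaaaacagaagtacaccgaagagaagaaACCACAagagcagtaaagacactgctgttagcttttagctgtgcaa
RUNX factors act throughout blood development. Their motif was found in 7 of the 19 distal regions and in 27.1% of all regions outside promoters. Among the same 19, the E2A-type E-box CAGGTG was found in 5 (15.5% of all regions outside promoters) and the EBF1-type motif CCCNNGGG in 3 (6.65%). The NF-kB-type motif GGNNTTTCC was found in 1 (8.65%), the PU.1-type GAGGAAGT in 2 (3.18%) and the IRF-type GAAANNGAA in 2 (12.6%). The octamer ATGCAAAT (2.92%) and the AP-1 and BATF motif TGANTCA (17.4%) were found in 0. Each was searched on both strands within 100 bp of the summit. EBF1 and E2A are transcription factors of early B cell commitment.

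Other intron regions of PTPRC were also called in every library. The region at chr1:198638070-198638634, 30.2 kb downstream, had 28, 31, 28, 19, 38 and 25 reads, with SDS-free unpurified replicate 1 highest. The region at chr1:198703185-198704185, 95.4 kb downstream, had 36, 35, 36, 28, 30 and 26 reads, with both SDS values above both unpurified values. Both regions were above the median of 26.2 reads of regions outside promoters called in all 6, at means of 28.2 ± 6.31 and 31.8 ± 4.40 (SD, n = 6). A region at chr1:198610660-198611060, 2.58 kb downstream, was called in 4 libraries with 18 to 20 reads, and 3 more intronic regions of PTPRC were called in 1 library each with 12 to 15 reads.

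CD37 had no region at a promoter. Its closest region lay 1455 bp from the canonical start and was called in SDS-free unpurified replicate 2 alone, with 12 reads. The summit of this region lay in an overlapping long non-coding RNA gene. The other region, at chr19:49843379-49843919 in an exon 4992 bp downstream of the canonical start, had 16 reads in SDS replicate 1, 14 in SDS-free purified replicate 2, and 25 and 13 in the SDS-free unpurified replicates, with no peak in the other 2 libraries. The nearest region called in all 6 libraries was 117446 bp from the canonical CD37 start.

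**Figure D3:**
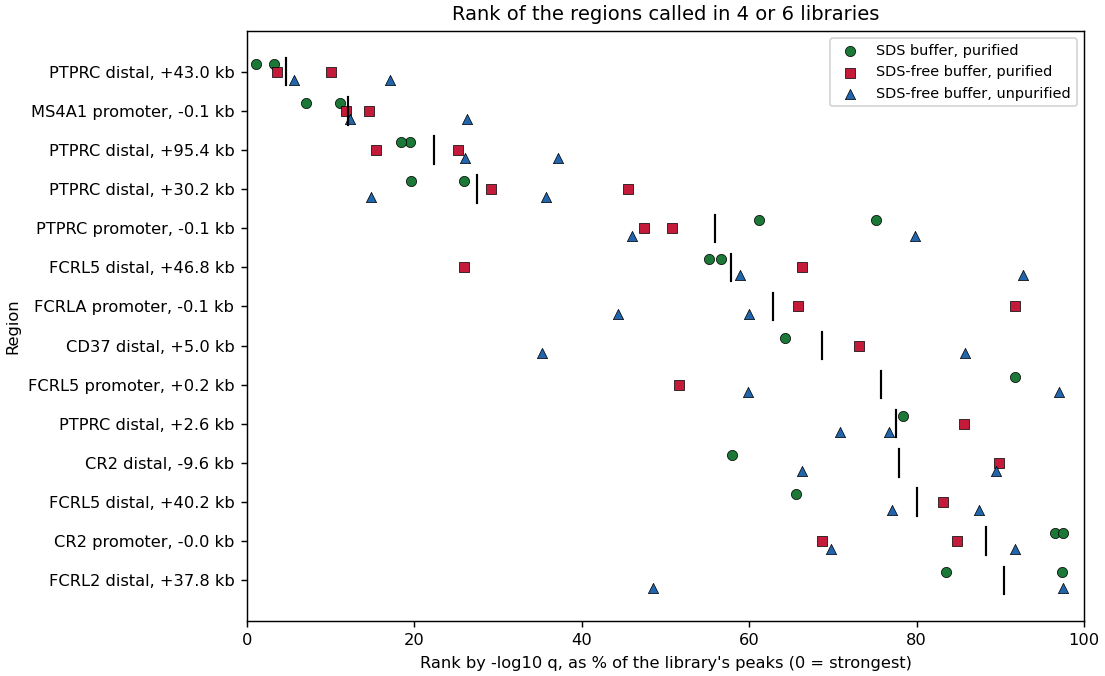
Rank of the 14 regions called in 4 or 6 libraries, by −log10 q, as a percentage of all peaks of the same library (x axis, 0 is the strongest); each point is a library, colour and shape give the protocol, and the black tick is the median. The PTPRC intron region and the MS4A1 promoter had medians of 4.65% and 12.1%, while the CR2 promoter had 88.3%.

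The receptors of complement and IgE had weak regions. FCER2 had a promoter region in 1 library only, SDS replicate 1, at chr19:7766838-7767081 with 15 reads. Its other regions were 1 in an intron and 1 upstream, each called in 1 library with 14 reads, and 1 at chr19:7745438-7745891 at the promoter of TRAPPC5, past the end of FCER2. This last region had 15 and 11 reads in the SDS-free purified replicates and 12 in SDS-free unpurified replicate 1. The nearest region called in all 6 libraries was 127275 bp from the canonical FCER2 start.

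The CR2 promoter region, at chr1:207627405-207628273, was called in all 6 libraries but with few reads, at 13, 13, 16, 13, 17 and 15. The peaks did not all cover the same bases. The SDS peaks lay at 164 to 600 bp from the canonical start and the unpurified peaks at -210 to 110 bp. The counts of the protocols are therefore not those of 1 shared site. The mean of the 6 counts, 14.5 ± 1.76 (SD, n = 6), was above that of only 0.35% of promoter regions called in all 6. The position of its summit differed between the buffers, a difference noticed after the values were seen. In the SDS libraries the summits lay 506 and 422 bp downstream of the canonical start, and in the SDS-free libraries 168, 1, 2 and 85 bp upstream. SDS-free purified replicate 1 had another, weaker peak in the same region, with a summit 398 bp downstream and 14 reads, so the downstream site was not absent without SDS. Summits of SDS and SDS-free libraries did not overlap in 12.6% of the 20064 regions called in all 6 libraries, and in 1 of the 7 described here. A gap as wide as the 423 bp at CR2 was seen in 10 regions, 0.0498% of them. Only a long region can hold such a gap. The CR2 region spanned 869 bp, and the median length was 438 bp for all regions and 715 bp for all promoter regions. The share therefore depends on region length and does not measure how rare a difference between buffers is. An exact two-sided rank-sum test of 4 libraries against 2, which was not run, cannot go below p = 0.133. Without SDS replicate 2 or without SDS-free purified replicate 2 the peaks no longer formed 1 region, and the number of genes with a promoter region in every library fell from 3 to 2. SDS replicate 2 also had a separate promoter region 969 bp downstream, with 15 reads.

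Of the other CR2 regions, the strongest lay upstream at chr1:207617950-207618424, 9553 bp from the canonical start, and had 16 reads in SDS replicate 1, 11 in SDS-free purified replicate 2, and 12 and 16 in the SDS-free unpurified replicates. It is shown as the strongest distal region of CR2, as the plus strand at chr1:207618020-207618220 of GRCh37. None of the 8 motifs matched there.
CR2 upstream: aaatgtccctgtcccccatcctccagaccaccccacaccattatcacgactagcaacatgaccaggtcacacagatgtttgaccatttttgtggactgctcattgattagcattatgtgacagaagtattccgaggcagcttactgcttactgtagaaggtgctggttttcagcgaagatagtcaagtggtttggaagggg
The 3 regions past the end of CR2 were called in 1 library each with 12 to 14 reads, and 2 of them lay at the promoter of CR1, the neighbouring complement receptor gene.

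**Figure D4:**
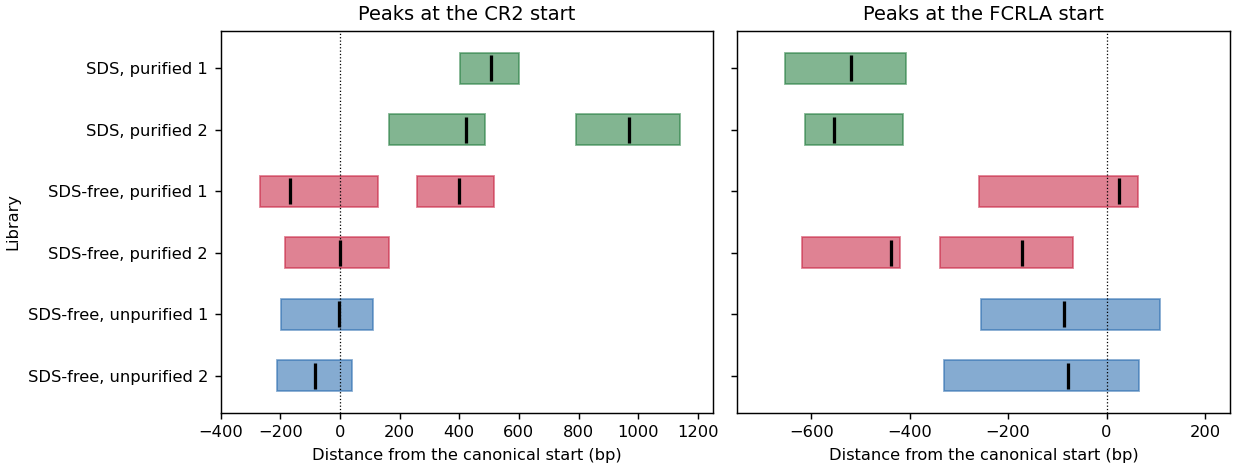
Peaks called at the starts of CR2 (left) and FCRLA (right) in each library, in bp from the canonical start in the direction of transcription; bars are peaks, coloured by protocol, and black ticks are summits. At CR2 the SDS summits lie 422 and 506 bp downstream and the strongest SDS-free summits 1 to 168 bp upstream, and at FCRLA the region next to the start has a peak in the 4 SDS-free libraries and in neither SDS library.

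FCRLA had a pair of promoter regions that different libraries called. The one next to the start, at chr1:161676680-161677127 with summits from 171 bp upstream to 25 bp downstream, had 12 and 15 reads in the SDS-free purified replicates and 16 and 22 in the SDS-free unpurified replicates, and no peak in either SDS library. The one further upstream, at chr1:161676366-161676611 with summits 554 to 439 bp upstream, had 16 and 11 reads in the SDS replicates and 12 in SDS-free purified replicate 2. Regions called in all 4 SDS-free libraries and in neither SDS library made up 0.475% of all regions, and the start region of FCRLA was the 1 of the 31 among them. The neighbouring regions lay so close that merging within 100 bp joined them into a region called in all 6 libraries, so that the gene count rose from 3 to 4. The window around the strongest summit of the region next to the start matched the PU.1-type motif GAGGAAGT and the IRF-type motif GAAANNGAA. The upstream one matched the octamer ATGCAAAT. In windows of the same length these motifs were present in 1.94%, 4.49% and 1.08% of all promoter regions. Outside promoters they were present in 3.18%, 12.6% and 2.92% of all regions. The windows of the start and upstream regions had 40.8% and 43.8% GC. The median was 67.7% for all promoter regions and 44.3% for all regions outside promoters. Among the 12 regions at a promoter of any gene, the motifs matched in 1, 2 and 1. PU.1, IRF and octamer-binding factors are used by B cells to drive immunoglobulin and receptor genes. Whether the buffer has a part in the patterns at CR2 and FCRLA was not tested.

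Among FCRL1, FCRL2, FCRL3 and FCRL5, only FCRL5 had a region in its window called in every library. This lay downstream of the gene, at chr1:157475188-157475852, and had 19, 15, 24, 15, 17 and 12 reads (mean 17.0 ± 4.15, SD, n = 6), above 7.23% of the regions outside promoters called in all 6. SDS-free purified replicate 1 was highest and SDS-free unpurified replicate 2 lowest, and their ranks were 25.9% and 92.7%. The FCRL5 promoter, at chr1:157521738-157522415, had 13 reads in SDS replicate 1, 18 in SDS-free purified replicate 1, and 18 and 11 in the SDS-free unpurified replicates, with summits 230 to 376 bp inside the gene. A further downstream region, at chr1:157481877-157482241, was called in 4 libraries with 14 to 16 reads, and an upstream one in 2 with 14 and 11.

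FCRL2 had a downstream region at chr1:157708950-157709603, with 14 and 10 reads in the SDS replicates, 12 and 19 in the SDS-free unpurified replicates, and no peak in the SDS-free purified ones. Its promoter, at chr1:157746824-157747259, was called in SDS replicate 1 and SDS-free purified replicate 2 with 13 reads each. The promoter window matched TGANTCA, the AP-1 and BATF motif, present in 3.66% of all promoter regions and in 17.4% of all regions outside promoters, but in 0 of the 19 distal regions here.

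The sequences of the FCRL5 and FCRL2 regions are shown on the minus strand, in which both genes are read, because they are the strongest distal region of each gene and the strongest promoter region in the windows of the clustered genes described. They are chr1:157475423-157475623 and chr1:157521975-157522152 for FCRL5, the latter without untranslated bases, and chr1:157709016-157709216 for FCRL2, all from GRCh37. Capitals mark the RUNX match, and none of the 8 motifs matched in the FCRL5 stretches.
FCRL5 downstream: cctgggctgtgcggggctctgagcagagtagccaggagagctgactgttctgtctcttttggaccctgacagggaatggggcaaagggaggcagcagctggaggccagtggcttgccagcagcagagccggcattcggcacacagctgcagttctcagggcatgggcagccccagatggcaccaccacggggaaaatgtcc
FCRL5 promoter: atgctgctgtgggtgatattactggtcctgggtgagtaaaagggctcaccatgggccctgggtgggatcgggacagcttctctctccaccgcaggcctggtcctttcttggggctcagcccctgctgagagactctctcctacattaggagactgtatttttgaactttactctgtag
FCRL2 downstream: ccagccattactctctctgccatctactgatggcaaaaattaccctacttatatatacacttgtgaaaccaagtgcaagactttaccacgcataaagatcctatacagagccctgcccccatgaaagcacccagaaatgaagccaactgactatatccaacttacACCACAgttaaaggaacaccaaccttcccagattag

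FCRL1 and FCRL3 had no region in their windows in any library. The nearest region to the canonical start was 42651 bp away for FCRL1 and 26009 bp away for FCRL3. The whole stretch from 10 kb beyond the end of FCRL5 to 10 kb beyond the start of FCRL1 spans 327 kb and held 13 regions, 4 of them called in all 6 libraries and 0 in 1 library only. The widest part without a region was 73.3 kb, at chr1:157623248-157696567, and it contains FCRL3. The other 7 regions of this stretch lay outside the windows of the 4 FCRL genes described, on both sides of FCRL3. FCRL4, which is not among the genes described, had 4 regions in its own window, 2 of them called in all 6 libraries.

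The promoter regions called, at 7 of the 10 genes, were poor in CpG at the median. CD37, FCRL1 and FCRL3 had no promoter region and were not measured. In windows of 100 bp on either side of the strongest summit, the 9 promoter regions had a median GC content of 44.3%, with a range of 34.3% to 71.1%, against 67.7% for all promoter regions, and a median of 2 CpG against 19. Distal regions resembled others, with medians of 44.8% and 44.3% GC and 2 CpG in both. The CR2 promoter was the richest of the 9, with 71.1% GC and 21 CpG, and the PTPRC promoter had the lowest GC content, 34.3%.

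Read counts in the 7 regions called in all 6 libraries were compared between protocols with limma on log2 summit reads. The fit covered all 20064 such regions, and p-values were adjusted by the Benjamini-Hochberg method. At the CR2 promoter the summits compared lay at different positions. Regions that any library missed, such as the start region of FCRLA, were not fitted, so the fit says nothing of them. None of the 7 passed an adjusted p of 0.05 in any of the 3 comparisons, and neither did any of the 20064 regions fitted (0%). An unadjusted p under 0.05 was found in 1539 regions for SDS-free purified against SDS and in 1480 for SDS-free unpurified against SDS. For SDS-free unpurified against purified it was found in 947. The PTPRC intron region 43.0 kb downstream differed by -0.49 on the log2 scale between SDS-free unpurified and SDS (95% interval -0.98 to 0.0019, adjusted p = 0.673), and the one 95.4 kb downstream by -0.42 (interval -0.84 to 0.00077, adjusted p = 0.673). The FCRL5 downstream region differed by -0.51 between SDS-free unpurified and purified (interval -1.01 to -0.02, adjusted p = 1), and was the 1 of the 7 with an unadjusted p under 0.05 in that comparison. The MS4A1 promoter differed by -0.11 (interval -0.56 to 0.35, adjusted p = 0.914) between SDS-free purified and SDS and by -0.27 (interval -0.72 to 0.18, adjusted p = 0.789) between SDS-free unpurified and SDS. Apart from the one at FCRL5, these intervals, which are not adjusted for the number of regions, include differences of either sign, so the protocols were not shown to be alike. The SDS libraries enter both comparisons against SDS.

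Few regions were called by a whole protocol and missed by a whole other one. Of the 27 regions called in any of the 4 libraries compared, the FCER2 region at TRAPPC5 and the start region of FCRLA were called in both SDS-free purified libraries and neither SDS library, a pattern of 1.83% of all regions. In the opposite direction it was the FCRL2 downstream region, beside 3.2% of all regions. Against SDS, SDS-free unpurified libraries alone called the start region of FCRLA, beside 2.4%, and SDS libraries alone called the upstream region of FCRLA, beside 2.82%. The FCRL2 downstream region was called in both unpurified and neither purified SDS-free library, beside 2.7%, and 0 regions showed the reverse, beside 1.76%. With 2 libraries against 2 an exact two-sided permutation test cannot go below p = 0.333, and these regions had 10 to 22 reads where they were called.

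Other genes of the same kinds were counted for comparison. Of 22 other B-cell surface genes in the annotation, 7 had a promoter region in all 6 libraries, namely CD38, CD40, CD82, SLAMF1, LY9, IL21R and CD74, 10 had one in 1 to 5 libraries, and 5 had none. The share in all 6 was thus 31.8%, beside 30.0% for the 10 genes described. Of 12 other Fc receptor genes, 0 had a promoter region in all 6 libraries, and FCRL4, FCRL6 and FCMR had one in 3, 1 and 1 libraries.

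**Figure D5:**
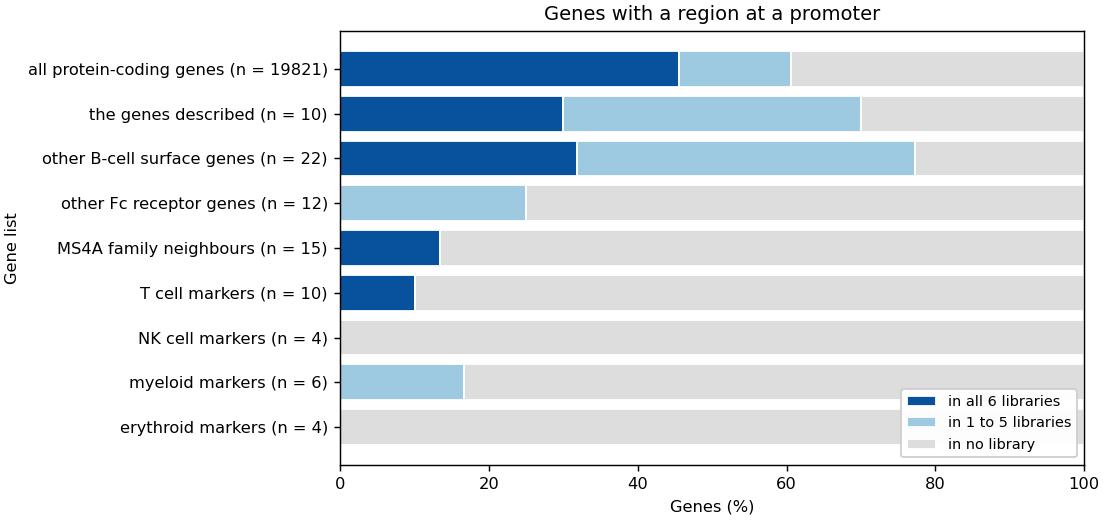
Share of the genes of each list (x axis, percent; n is the number of annotated genes) with a promoter region in all 6 libraries (dark blue), in 1 to 5 libraries (light blue) or in no library (grey). The 10 genes described and the other B-cell surface genes had 30.0% and 31.8% in all 6, below the 45.5% of all protein-coding genes, and the other Fc receptor genes had 0%.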

How the data were processed

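The authors mapped reads to hg19 with Bowtie2 2.1.0, removed mitochondrial reads and, with Picard 1.79, duplicates, and used MACS2 to call narrow peaks. Its version is not given in the sources used here. Merging of reads within a condition before calling is described, but 1 list per library was used here. The deposited lists give each peak's score, fold enrichment (a ratio) over the local background, −log10 p and −log10 q. The lowest −log10 q per list was 2.01 to 2.35.

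Summit reads were solved from fold and p (largest miss 0.000275 in −log10 p), and counting error limits their precision. Depth was read from the lowest background. Regions were assigned with GENCODE 44 on GRCh37. A library called a region with at least 1 bp in its peaks. limma 3.58.1 was run in R 4.3.3 on median-centred log2 summit reads, without a replicate block. Python 3.11.15 and SciPy 1.17.1 were used, and the solved summit reads, limma and the merging of peaks (against bedtools 2.31.1) were tested on simulated data.

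The genes and lists were chosen with earlier results of these data known. All 10 genes were named, with their promoter regions, the strongest distal region of each and protocol-specific regions. The CR2 summit positions, the regions beyond this rule and the 4-against-2 count were chosen after their values were seen. CD24 could not be matched to the annotation. Some items are not reported here. Alternatives covered flank, promoter width, threshold, merging, overlap, ranking, normalisation and left-out replicates. Of any 2 lists, at most 0.023% of peaks had identical bounds.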

Additional observations from a re-analysis of the deposited data

How the results depend on the processing

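With no flank there were 18 regions instead of 31, and with 5 kb and 25 kb flanks 22 and 42. With each replicate left out in turn the number of regions was 28 to 31, those called in every library 6 to 7, and genes with such a promoter region 2 to 3. That gene count was 2 at a −log10 q of at least 5, with equal numbers of peaks and with 0.5 of the region required in peaks (all without CR2), and 4 with merging within 100 bp or with any peak in the promoter window (both with FCRLA). Regions specific to 1 protocol were 2 instead of 4 at a −log10 q of at least 5 and also with merging within 100 bp. Ranked by fold enrichment, the median rank was 23.2% for the MS4A1 promoter and 70.8% for the PTPRC promoter, instead of 12.1% and 56.0%. The promoter counts with merging, equal numbers, overlap and any peak, the merged protocol counts and the variance trend were added after seeing the data.

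limma called none of the regions described under any setting run, with 7 regions tested, or 5 where a mean of at least 20 summit reads was required. Over all regions fitted it called 0 except with a variance trend. There 9 and 4 regions passed for SDS-free purified and SDS-free unpurified against SDS, and the cause was not tested. Without centring, the median difference was 0.12 for SDS-free unpurified against SDS. With the replicate number as a block, 0 regions were called in each comparison. No pairing by replicate number was seen: replicate differences of 2 protocols correlated at r = -0.00417, -0.00264 and 0.0146 over 20064 regions. Counting error at this depth could hide a weak pairing, so it is not excluded. Of 267 refits of single regions, 15 had the other sign, all for differences of at most 0.196 on the log2 scale. The weakest summit in a list held 8 or 9 reads, so depth limits what can be said of regions whose summits held little more.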
